A study of Homo sapiens with 60 samples.

Results

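Zizyphi Fructus, the dried fruit of the jujube, was given as a water extract to HT29 cells, and the messenger RNA levels at its high dose of 500 µg/mL were compared with those at its low dose of 20 µg/mL. The samples were chosen by the labelled extract and dose, 3 at each dose, and are 6 of the 60 samples of the series. HT29 is an established line of human colorectal adenocarcinoma cells. The study treated it with vehicle, with the kinase inhibitor wortmannin, or with 1 of 6 herbal water extracts at 3 doses, each in 3 samples. In every extract group used here, cells were exposed for 24 h to an extract made in hot water and freeze-dried. The other groups drawn on below are the medium dose of Zizyphi Fructus (100 µg/mL), the vehicle (DMSO, labelled 0.1% with the samples but 2% in the series text), and the high and low doses of Pinelliae Tuber and of Coptidis Rhizoma. Whether the extracts also contained DMSO is not given in the labels, nor is it given whether the 3 samples of a group were separate cultures. The p-values therefore measure only the spread between samples of a group, estimated for each gene over all 60 samples of the series. The vehicle samples carry codes of another set than the Zizyphi Fructus samples, so set and treatment cannot be told apart in that comparison, while the 2 doses share a set. A set here is the first part of the sample code, and the labels do not say what it stands for. The titles place all samples used here in batch A.

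NRF2, encoded by NFE2L2, is a transcription factor that cells hold at a low level by binding it to KEAP1, which marks it for destruction. Oxidants and electrophiles, among them many plant compounds, modify KEAP1, and NRF2 then enters the nucleus and pairs with a small MAF protein on DNA elements of its target genes. The targets make glutathione, reduce quinones, aldehydes and ketones, break down haem, store iron and supply NADPH, and in the gut lining they help to handle reactive compounds in food.

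The high dose differed from the low dose in 8 genes out of 16609 tested, which is 0.0482% of them (edgeR quasi-likelihood test, Benjamini-Hochberg adjusted p under 0.05 over all genes). All 8 rose, and all 8 encode enzymes that are textbook NRF2 targets: AKR1B10, AKR1C1, AKR1C2, AKR1C3, ALDH3A1, GCLM, NQO1 and HMOX1. Their increases ran from 0.34 to 0.75 on the log2 scale, or 27.0% to 68.5%. In each of them all 3 high-dose samples lay above all 3 low-dose samples, a separation found in 6.86% of all genes. Since the 8 were called from these same samples, their separation is partly set by that choice. No gene fell at this threshold, although 2524 genes had a higher level (15.2%) and 1529 a lower level (9.21%) at an unadjusted p under 0.05. The number called changed with the fit, since DESeq2's Wald test called 949 higher and 233 lower genes, and fits of the compared groups alone called 0 with 411 at an unadjusted p under 0.05.

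High-dose replicate 3 stood apart from the other samples and was the highest of the 3 for all 8 genes. Ribosomal-protein genes held 8.23% of its counts, the largest share among the 60 samples, against 5.21% and 5.64% in the other high-dose samples and 5.07%, 5.36% and 5.27% at the low dose. This share did not separate the doses (two-sided exact permutation p = 0.3 with n = 3 and 3, where 0.1 is the smallest possible). On the first principal component of the 9 Zizyphi Fructus samples, which held 56.8% of the variance, the sample lay at 49.2 and the other 8 between -10.1 and 2.4. The median SD of a gene's log2 level was 0.158 over the 3 high-dose samples and 0.0542 without replicate 3, against 0.0597 at the low dose. The main fit shares 1 estimate of spread per gene over all 20 groups. Its p-values and standard errors therefore take in the wider spread of the high dose only in part. Replicate 3 also had relatively more counts on genes of short exonic length. That length is the number of bases covered by all annotated exons of a gene, so it can exceed the length of its transcripts. Against the low-dose mean, the median log2 difference of replicate 3 ran from 0.352 in the shortest of 5 equal groups of genes by exonic length to -0.259 in the longest, while replicate 2 ran from 0.085 to -0.047 and replicate 1 from 0.001 to 0.005. The high-dose libraries held 28.2, 27.2 and 23.1 M counts (M, 1e6) and the low-dose libraries 30.5, 24.8 and 16.9 M. What set replicate 3 apart was not tested, and results are therefore given with it and without it.

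**Figure D1:**
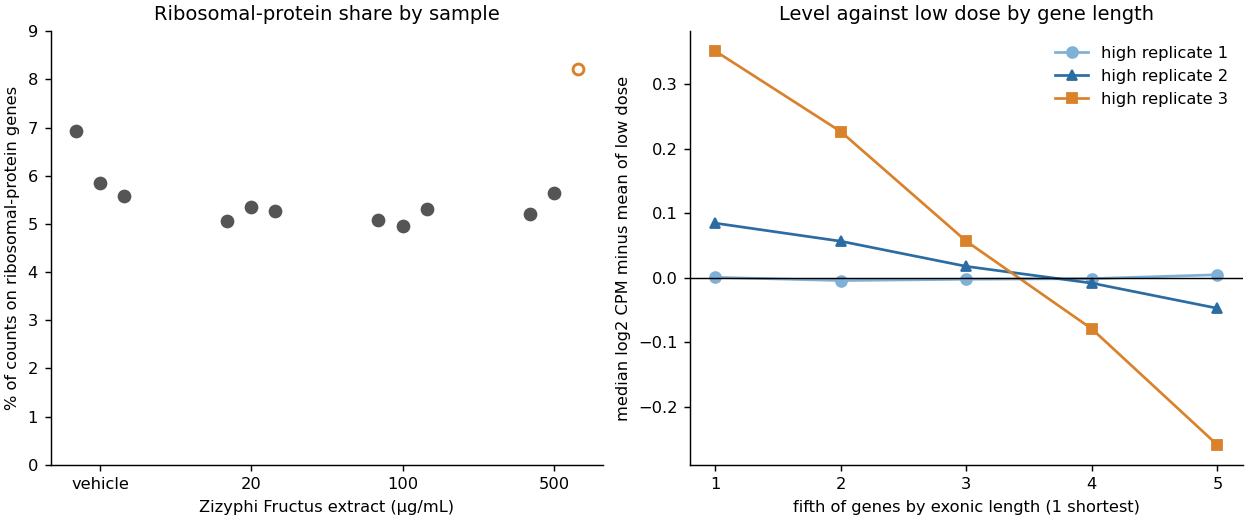
Left, percent of counts on ribosomal-protein genes in each sample (points) by group, with high-dose replicate 3 as the open point. Right, median log2 CPM of each high-dose sample minus the low-dose mean, by 5 groups of genes ordered by exonic length. Replicate 3 is at 8.23% on the left, and its line on the right falls from 0.352 to -0.259 while that of replicate 1 stays near 0.

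Without replicate 3 the high dose still differed from the low dose in 2 genes, AKR1B10 and GCLM, 0.0118% of the 16906 then tested. The change in AKR1B10 was 0.36 (adjusted p = 0.00918) and that in GCLM 0.33 (adjusted p = 0.0425). The other 6 genes kept a positive change that no longer passed, with 0.43 for ALDH3A1 (adjusted p = 0.168), 0.40 for AKR1C2, 0.36 for AKR1C3, 0.34 for HMOX1, 0.30 for AKR1C1 and 0.20 for NQO1. Both remaining high-dose samples lay above all 3 low-dose samples in all 8 genes, as they did in 9.6% of all genes. At an unadjusted p under 0.05 the background without replicate 3 was 1.51% of genes higher and 1.54% lower, and all 8 passed that mark. The 8 were called with these same samples included, so neither this separation nor these p-values are independent of that choice.

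The aldo-keto reductases made up 4 of the 8 genes. AKR1B10, which reduces aldehydes and retinal and lies on chromosome 7 (chr7:134527592-134541408, GRCh38, GENCODE 29), read 117, 132 and 162 CPM (counts per 1e6 of the TMM-scaled library size) in the high-dose samples against 89.6, 99.0 and 103 at the low dose. Its change was 0.50 ± 0.07 on the log2 scale (SE, 95% interval 0.36 to 0.64, adjusted p = 8.26e-05). Every high-dose sample was above every low-dose sample, with replicate 3 the highest.

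AKR1C1, AKR1C2 and AKR1C3, which reduce steroids, prostaglandins and carbonyl compounds, lie side by side on chromosome 10 (chr10:4963253-4983283, chr10:4987400-5018031 and chr10:5035354-5107686). Their sequences are closely alike, and the authors' counting divides reads between such genes by estimate, so the 3 are not independent and the split between them is uncertain. AKR1C1 read 16.2, 17.9 and 25.0 CPM at the high dose and 12.2, 14.3 and 15.7 CPM at the low dose (change 0.49 ± 0.10, adjusted p = 0.0391). AKR1C2 read 11.4, 14.5 and 18.7 CPM against 10.1, 9.09 and 10.1 CPM (0.59 ± 0.12, adjusted p = 0.0368). AKR1C3 read 60.2, 71.4 and 128 CPM against 49.8, 52.3 and 51.5 CPM (0.75 ± 0.16, adjusted p = 0.0472). The doses did not overlap in any of the 3 genes, and the change in AKR1C3 was 2.08 times as large with replicate 3 as without it.

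ALDH3A1, an aldehyde dehydrogenase on chromosome 17 (chr17:19737984-19748943), read 20.8, 25.8 and 32.0 CPM at the high dose and 16.8, 16.9 and 18.3 CPM at the low dose. It rose by 0.59 ± 0.10 (adjusted p = 0.00131). All 3 low-dose samples were close together, and the high-dose samples spread upward from them.

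GCLM, the regulatory subunit of glutamate-cysteine ligase, which makes the first intermediate of glutathione, lies on chromosome 1 (chr1:93885205-93909456). It read 76.2, 81.4 and 89.5 CPM at the high dose and 60.3, 64.1 and 64.6 CPM at the low dose, a rise of 0.39 ± 0.06 (adjusted p = 7.25e-04). Its change was 1.19 times as large with replicate 3 as without it, and that of HMOX1 1.16 times, the 2 smallest ratios of the 8. NQO1, the quinone reductase on chromosome 16 (chr16:69706996-69726951), read 528, 589 and 740 CPM against 484, 485 and 493 CPM and rose by 0.34 ± 0.06 (adjusted p = 0.00227). HMOX1, the haem oxygenase on chromosome 22 (chr22:35380361-35394214), read 9.97, 10.6 and 11.6 CPM against 8.59, 8.06 and 7.59 CPM and rose by 0.40 ± 0.09 (adjusted p = 0.0472). For both genes the lowest high-dose sample was above the highest low-dose sample.

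**Figure D2:**
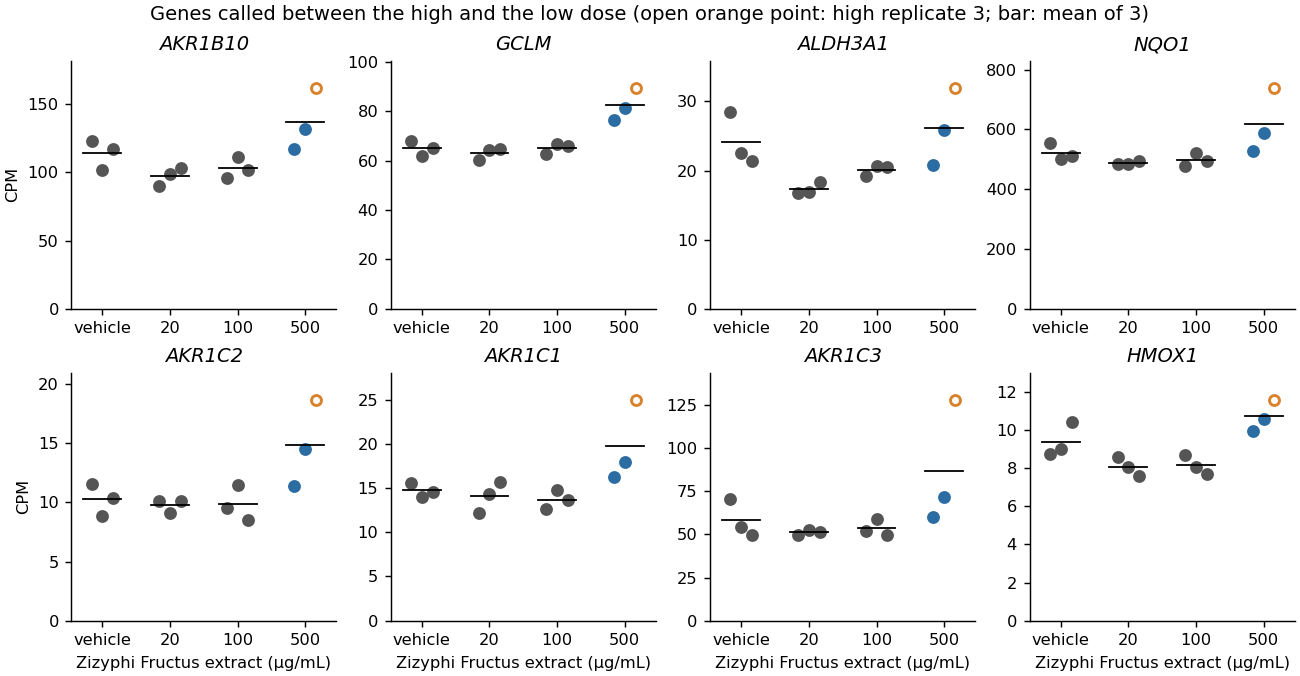
Level in CPM (y axis, from 0) of the 8 genes called between the doses, for each sample of vehicle and of the extract at 20, 100 and 500 µg/mL (x axis). Bars are means of 3, and the open point is high-dose replicate 3. The 500 µg/mL samples lie above the 20 µg/mL samples in all 8 panels, with replicate 3 the highest. In 6 of the 8 the vehicle samples overlap the 500 µg/mL samples, in NQO1, AKR1C2 and AKR1C3 through vehicle replicate 1 alone.

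Promoter sequence shows where an NRF2 element could lie in these genes. The element was searched as the letters TGACNNNGC on either strand in RefSeq windows of 250 bases before to 50 after each gene's start (GRCh38.p14). Of the 21 genes formed by the NRF2 list and ALDH3A1, 15 had a window and 4 of these held the letters (GCLM, ME1, TXNRD1 and PGD), while 13.3% of all 35116 windows and 14.5% of those of tested genes held them. The 200 bases before the start are printed for GCLM, which was called with and without replicate 3, and for ME1, which was called against vehicle. Both hold the letters, while KCNE3, also called against vehicle, had a window without them. Capitals mark the match, at positions -34 to -26 from the start in GCLM, where it is on the opposite strand and so reads as its reverse complement, and at -137 to -129 in ME1.
GCLM (chr1:93909431-93909630, minus strand): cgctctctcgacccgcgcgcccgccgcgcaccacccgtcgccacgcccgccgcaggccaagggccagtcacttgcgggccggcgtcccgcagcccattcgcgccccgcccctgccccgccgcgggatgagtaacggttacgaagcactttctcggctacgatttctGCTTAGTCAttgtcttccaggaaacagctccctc
ME1 (chr6:83431052-83431251, minus strand): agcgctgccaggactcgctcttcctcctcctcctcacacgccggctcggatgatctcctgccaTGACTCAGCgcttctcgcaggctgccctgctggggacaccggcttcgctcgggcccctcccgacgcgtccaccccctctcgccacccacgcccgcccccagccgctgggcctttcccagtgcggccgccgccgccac
A match is a description of these letters, and nothing about binding was measured.

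All 20 genes of the NRF2 list were tested, and all 20 had a positive log2 change at the high dose, as had 8491 of the 16609 genes tested. Of the 20, 7 were called, against 0.0482% of all genes, and 18 had an unadjusted p under 0.05, against 15.2% of all genes on that side. The list was written with earlier results of these data known, so its contrast with all genes may partly reflect that choice. The median log2 change of the list was 0.31, against 0.006 over all genes tested. Without replicate 3 it was 0.22 against 0.001, with again 20 positive changes and 18 unadjusted p under 0.05 against 1.51% of all genes. The list's median over the low-dose mean was 0.15, 0.26 and 0.44 in high-dose replicates 1, 2 and 3, so the order of the samples was that of the ribosomal-protein share, whose part in the result was not tested. Replicate 3 was the highest of the 3 high-dose samples in 14 list members, the lowest in 4 and the middle sample in 2. Over all genes it was the highest in 46.0%. Both remaining samples were above all low-dose samples in 18 of 20, against 9.6% of all genes. The 7 called members were called with these samples, so this count is partly set by that choice.

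Among genes of glutathione and thiol chemistry, none besides GCLM was called. GCLC, the catalytic partner of GCLM, read 87.0, 88.7 and 88.0 CPM at the high dose and 76.9, 79.9 and 81.2 CPM at the low dose (0.15 ± 0.05, adjusted p = 0.07), and its value was 0.15 without replicate 3 as well. SLC7A11, the cystine carrier of the plasma membrane, read 176, 175 and 144 CPM against 151, 143 and 153 CPM, so that replicates 1 and 2 were above the low dose and replicate 3 was not. Its log2 difference was 0.15 with replicate 3 and 0.24 without it. TXNRD1, the thioredoxin reductase, had the same shape, with 396, 398 and 351 CPM against 349, 362 and 374 CPM and differences of 0.08 and 0.14. Of the 8 listed genes in the 2 longest of the 5 length groups, replicate 3 was the highest high-dose sample in 4 (GCLM, AKR1C1, AKR1C2 and TKT), the lowest in 3 (SLC7A11, TXNRD1 and ABCC2) and the middle sample in GCLC. SRXN1, sulfiredoxin, which repairs oxidised peroxiredoxins, differed by 0.21 with replicate 3 and 0.16 without it (adjusted p = 0.0621 with it).

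ME1, PGD, TKT and TALDO1, enzymes of NADPH supply and of the pentose phosphate pathway, had higher means at the high dose without passing the adjusted threshold. ME1, the cytosolic malic enzyme, read 95.4, 103 and 115 CPM against 86.6, 91.1 and 90.3 CPM (0.22 with replicate 3 and 0.15 without it), and the doses did not overlap. TKT, transketolase, differed by 0.16 and 0.11. PGD, an NADPH-making dehydrogenase, differed by 0.04 and 0.03 and did not reach an unadjusted p of 0.05 in either fit. TALDO1, transaldolase, differed by 0.24 with replicate 3 and 0.05 without it, since its high-dose values were 252, 264 and 373 CPM against 245, 251 and 254 CPM.

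The ferritin chains, which store iron, were not called. FTL read 2320, 2700 and 3560 CPM at the high dose and 2070, 2030 and 2200 CPM at the low dose, a difference of 0.45 with replicate 3 and 0.26 without it. FTH1 differed by 0.41 and 0.17. Both are in the shortest group by exonic length, as is AKR1B10, while AKR1C3 is in the third, TALDO1 in the second and AKR1C1 in the longest. Since all annotated exons are counted, a gene in a long group need not have long transcripts in these cells. OSGIN1, an oxidative-stress growth inhibitor, read 13.9, 14.4 and 13.7 CPM against 11.9, 11.6 and 11 CPM, with no overlap and a difference of 0.28 with and 0.29 without replicate 3. ABCC2, an export pump for conjugates, stayed near 1 CPM in all 6 samples (0.65 ± 0.30), where the error is wide.

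**Figure D3:**
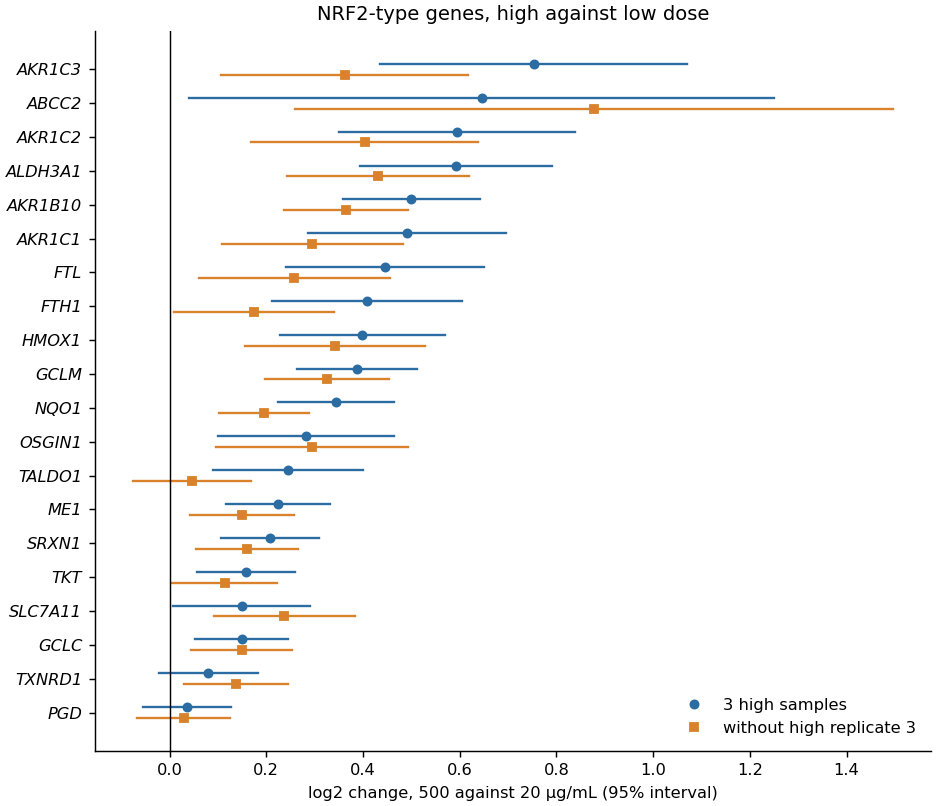
Log2 change between 500 and 20 µg/mL (x axis) with its 95% interval for 19 of the 20 genes of the NRF2 list and ALDH3A1 (y axis), over all 3 high-dose samples (circles) and without replicate 3 (squares). All points are above 0, from 0.04 to 0.75 with replicate 3, and the largest gap between circle and square in the genes well above 1 CPM is that of AKR1C3.

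None of the genes that control NRF2 was called. NFE2L2 itself, named here after its values were seen, read 117, 121 and 129 CPM at the high dose and 117, 125 and 119 CPM at the low dose, a difference of 0.02 ± 0.04, with overlapping doses. KEAP1, its repressor, differed by 0.20 with replicate 3 and 0.07 without it. SQSTM1, which binds KEAP1, differed by 0.20 and 0.08, MAFG, a partner on DNA, by 0.14 and 0.11, and the related factor NFE2L1 by -0.15 and -0.04. Over the 9 such genes the median was 0.02, with 3 higher and 1 lower at an unadjusted p under 0.05, and without replicate 3 it was 0.00 with 0 in either direction. The shares over all genes were 15.2% higher and 9.21% lower, then 1.51% and 1.54%.

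Other conjugation, peroxide and efflux genes, a list of 16 written after the main comparison had been seen, had a median of 0.21 with 12 higher and 1 lower, and 0.10 with 5 higher without replicate 3, where the shares over all genes were 15.2% higher and 9.21% lower, then 1.51% higher. GPX2, the gut glutathione peroxidase, read 696, 776 and 792 CPM against 626, 673 and 656 CPM (0.21 with replicate 3, 0.18 without). PRDX1, a peroxiredoxin, differed by 0.28 and 0.13, TXN, thioredoxin, by 0.57 and 0.19, and MGST1, a microsomal glutathione transferase, by 0.32 and 0.12. None of these was called. The differences of PRDX1, TXN and MGST1 were more than 2 times as large with replicate 3 as without it, and that of GPX2 was not.

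Because ALDH3A1 and NQO1 also answer to the aryl hydrocarbon receptor, the list of that receptor's genes was read, which includes both. Of the 9 tested, 2 were called, against 0.0482% of all genes, and these were ALDH3A1 and NQO1 themselves. At an unadjusted p under 0.05, 3 were higher, ALDH3A1 and NQO1 among them, and 2 lower, against 15.2% and 9.21% of all genes. CYP1A1, the most inducible target, named here after its values were seen, was at or below 0.49 CPM in all 6 samples, with a difference of 0.37 ± 0.42. AHRR, the receptor's repressor, read 4.76, 4.18 and 4.60 CPM against 5.95, 5.48 and 5.85 CPM, lower in all 3 high-dose samples but not called (-0.35 ± 0.12). UGT1A6, a glucuronosyltransferase, differed by 0.19 with replicate 3 and 0.17 without it. The median of the list, with ALDH3A1 and NQO1 in it, was 0.04, and 0.11 without replicate 3. HMOX1 was the only called gene among 11 genes of iron and haem handling, whose median was -0.07, and 0.01 without replicate 3.

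Several groups of housekeeping genes had higher values at the high dose with replicate 3 than without it. Cytosolic ribosomal-protein genes had a median difference of 0.36, and 31 of 32 had an unadjusted p under 0.05 on the higher side, against 15.2% of all genes, but without replicate 3 the median was 0.08 and 0 of 32 did, against 1.51%. Their median over the low-dose mean was 0.01, 0.15 and 0.80 in high-dose replicates 1, 2 and 3. Nuclear-encoded subunits of the respiratory chain behaved alike, with a median of 0.43 and 23 of 24 on the higher side, then 0.08 and 0 of 24. Proteins of the mitochondrial ribosome had 0.40 and 15 of 17, then 0.09 and 0 of 17, and the proteasome 0.23 and 11 of 14, then 0.08 and 0 of 14. None of these genes was called. RPLP0, of the large ribosomal subunit, read 1370, 1600 and 2450 CPM at the high dose and 1320, 1390 and 1450 CPM at the low dose. COX5B, of cytochrome oxidase, read 63.7, 73.9 and 129 CPM against 58.0, 65.5 and 58.5 CPM, and MRPS24, of the mitochondrial ribosome, 60.3, 66.0 and 119 CPM against 55.5, 55.7 and 56.8 CPM. In all 3 genes replicate 3 was far above every other sample, as it was the highest of the high-dose samples in all 32, 24 and 17 genes of the first 3 groups and in 46.0% of all genes.

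**Figure D4:**
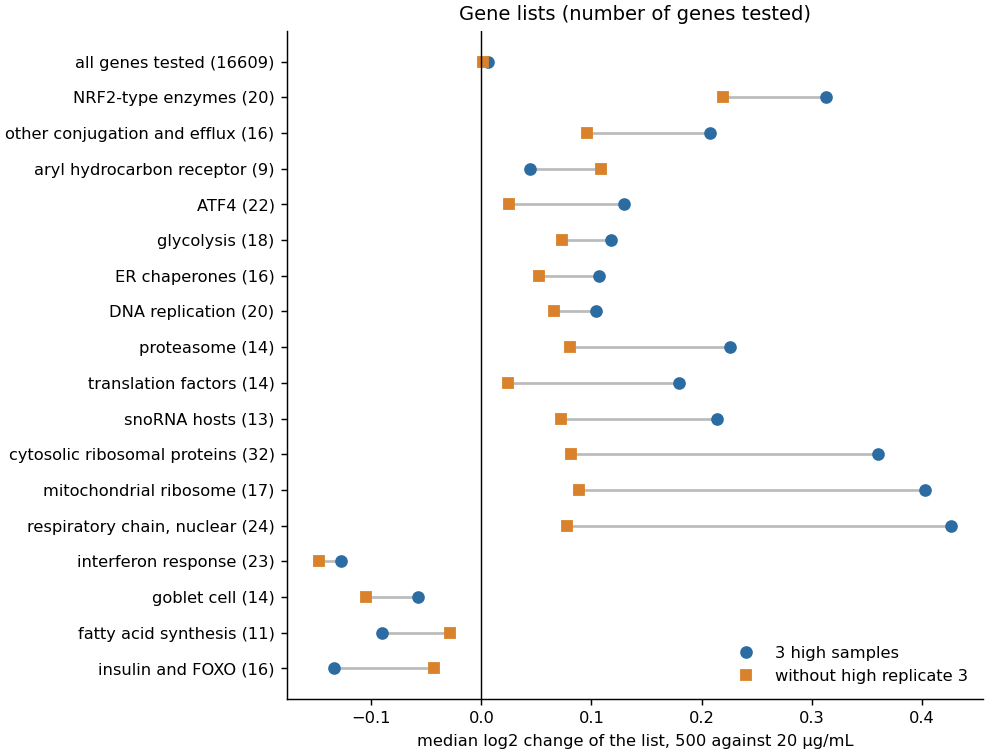
Median log2 change between 500 and 20 µg/mL (x axis) of each gene list (y axis, number of genes tested in brackets), over 3 high-dose samples (circles) and without replicate 3 (squares). The ribosomal and respiratory lists move from 0.36 and 0.43 to 0.08 each, while the NRF2 list moves from 0.31 to 0.22.

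Translation factors and other mRNAs of the same translational class had a median of 0.18 with 11 of 14 higher, then 0.02 with 0 of 14 without replicate 3. Counts here are at an unadjusted p under 0.05. For all lists of this paragraph, the shares over all genes were 15.2% higher and 9.21% lower, then 1.51% and 1.54%. Noncoding hosts of small nucleolar RNAs had 0.21 with 10 of 13, then 0.07 with 1 of 13. Amino-acid stress genes under ATF4 had 0.13 with 10 of 22 higher and 1 lower, then 0.03 with 3 higher and 1 lower. SLC3A2, the partner chain of the cystine carrier, read 168, 186 and 230 CPM against 152, 158 and 164 CPM (0.30, and 0.17 without replicate 3). Genes of glycolysis had 0.12 with 10 of 18, then 0.07 with 1 of 18, chaperones of the endoplasmic reticulum 0.11 with 9 of 16, then 0.05 with 1 of 16, and genes of DNA replication 0.10 with 11 of 20, then 0.07 with 2 of 20. No gene of these lists was called. Of all 46 lists, 3 held a called gene, namely those of NRF2, the aryl hydrocarbon receptor and iron.

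The median of the interferon list was below the low-dose mean in every high-dose sample. Its median over the low-dose mean was -0.16, -0.15 and -0.14 in replicates 1, 2 and 3, and the fitted median was -0.13, and -0.15 without replicate 3. Of 23 genes, 9 had an unadjusted p under 0.05 on the lower side, against 9.21% of all genes, and 3 on the higher side, and without replicate 3 the counts were 2, against 1.54%, and 0. PARP9 read 42.8, 42.2 and 34.0 CPM at the high dose and 46.4, 52.0 and 48.2 CPM at the low dose (-0.30 ± 0.08, adjusted p = 0.0621). OAS2, an RNA-sensing synthetase, read 6.16, 6.28 and 4.83 CPM against 6.27, 9.84 and 9.04 CPM, and RIGI, a viral RNA sensor, 14.2, 13.9 and 12.7 CPM against 14.0, 18.1 and 18.0 CPM. Low-dose replicate 1 was near the high-dose samples in both, and no interferon gene was called. Against vehicle the list's median at the high dose was 0.08 with and without replicate 3, on the other side of 0, and OAS2 read 5.64, 4.66 and 6.35 CPM in vehicle.

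No secretory or insulin-signalling gene was called. Goblet-cell genes had a median of -0.06 with 4 of 14 lower, then -0.10 with 2 lower, against 9.21% of all genes lower, then 1.54%. MUC13, a membrane mucin, read 145, 127 and 116 CPM against 149, 144 and 145 CPM (-0.18, and -0.10 without replicate 3). MUC2, the secreted gut mucin, read 36.1, 34.4 and 17 CPM against 41.2, 40.8 and 35.9 CPM, so that replicate 3 held most of the difference. Insulin-signalling genes under FOXO had -0.13 with 5 of 16 lower, then -0.04 with 0, against the same shares. Fatty acid synthesis genes had -0.09, then -0.03. CXCL8, a neutrophil-attracting chemokine, read 4.86, 5.36 and 6.36 CPM against 3.89, 4.05 and 4.46 CPM, with no overlap but no call (0.42 ± 0.14, adjusted p = 0.0802).

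Beyond the 8 called genes, the adjusted p rose at once to 0.0621, a value shared by many genes, and 629 genes lay below 0.07 where 8 lay below 0.06. The next higher genes by unadjusted p were TMEM203, a membrane protein (28.8, 30.1 and 43.5 CPM against 24.0, 26.0 and 27.2 CPM, a difference of 0.40), and EIF5, a translation initiation factor (228, 236 and 273 CPM against 209, 219 and 215 CPM, a difference of 0.20). The 10 lower genes with the smallest p among those with a mean of at least 5 CPM and no overlap between doses, none of them called, were AGO4, LAMB2, LINC00261, CHST3, KLHDC7A, RRBP1, LINC01232, ANXA2R-AS1, SLFN5 and ALAD, with differences from -0.20 to -0.54. LAMB2, a laminin chain, read 14.5, 13.6 and 11.7 CPM against 17.8, 16.8 and 16.5 CPM, and LINC00261, a noncoding RNA, 15.9, 14.8 and 12.4 CPM against 19.3, 19.7 and 18.0 CPM. Replicate 3 was the lowest high-dose sample in all 10. Over all genes, 6.48% had every high-dose sample below every low-dose sample, and 9.75% did so without replicate 3. Nothing is read from the separation of the 10, which were chosen for it.

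No gene was called between the medium and the low dose. Between 100 and 20 µg/mL edgeR called 0 genes (0%), with 385 at an unadjusted p under 0.05, and DESeq2 called 1, LY75-CD302, a read-through transcript named after its values were seen. Between 500 and 100 µg/mL it called 5 genes (0.0301%), AKR1B10, GCLM, NQO1, AKR1C1 and AKR1C2, all higher at 500 µg/mL, and 0 without replicate 3, where 502 had an unadjusted p under 0.05. DESeq2 called 841 with it. The comparisons share samples, so the calls are not independent. The medium-dose samples read 95.5, 111 and 102 CPM for AKR1B10 and 62.7, 66.6 and 65.7 CPM for GCLM. In 7 of the 8 called genes every high-dose sample was above every medium-dose sample, and in AKR1C2 replicate 1 at 11.4 CPM overlapped a medium-dose sample at 11.5 CPM. The margin was small in ALDH3A1, with high-dose replicate 1 at 20.8 CPM and medium-dose replicate 2 at 20.6 CPM. How often such a separation occurs over all genes was not counted. The 8 were chosen with these same high-dose samples, so it is partly set by that choice. Medium against low changes of the 8 ran from -0.04 to 0.21.

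Against vehicle the high dose differed in 3 genes (0.0181%). GCLM was higher by 0.34 ± 0.06 (adjusted p = 0.0132), with vehicle at 67.9, 62.0 and 65.0 CPM below all high-dose samples. ME1 was higher by 0.28 ± 0.05 (adjusted p = 0.0184), with vehicle at 86.8, 82.2 and 88.3 CPM. KCNE3, a potassium channel subunit of secretory epithelium, was higher by 0.26 ± 0.05 (adjusted p = 0.0132), but its level was alike at 500 µg/mL (70.2, 73.7 and 78.0 CPM) and 20 µg/mL (74.8, 75.1 and 74.9 CPM), and 65.6, 61.0 and 58.8 CPM in vehicle. Without replicate 3 GCLM was at 0.29 (adjusted p = 0.0811), and 1 gene was called, SELENOW, a small selenoprotein, which was lower and is named after its values were seen.

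The low dose itself read low for these genes. In 5 of the 8 called genes (AKR1B10, AKR1C3, ALDH3A1, HMOX1 and NQO1) the low-dose mean was the lowest of the 20 group means of the series. The 8 were chosen by their rise from this low dose, so its low rank is partly set by that choice. It is not read here as a trait of the low dose. Vehicle ranked 6 to 11 from the lowest and the high dose 11 to 15 over the 8 genes. ALDH3A1 read 28.5, 22.6 and 21.4 CPM in vehicle, within the range of the high dose, and NQO1 read 554, 500 and 512 CPM there. High-dose and vehicle samples overlapped in 6 of the 8 genes, and GCLM and AKR1C1 were the exceptions. In NQO1, AKR1C2 and AKR1C3 only vehicle replicate 1 reached the high-dose range, and in HMOX1 only vehicle replicate 3 did. Ribosomal-protein genes held 6.92% of the counts of vehicle replicate 1, against 5.85% and 5.58% in vehicle replicates 2 and 3. Whether this share bears on the overlap was not tested. How often such an overlap occurs over all genes was not counted. The differences of the 8 between high dose and vehicle ran from 0.12 to 0.57. Over the 20 listed NRF2 genes their median was 0.18, and 0.17 without replicate 3, against 0.007 over all genes.

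Pinelliae Tuber was given at the same doses of 500 and 20 µg/mL but its samples carry codes of another set, so set and extract cannot be told apart in the comparison with it. The change between doses differed between the extracts in 1 gene (0.00602%), TRIB3, a pseudokinase of the stress response. It differed by 0.52 ± 0.10 (adjusted p = 0.0317), with 0.25 in Zizyphi Fructus and -0.27 in Pinelliae Tuber. TRIB3 read 42.6, 41.9 and 52.8 CPM at the high and 41.4, 36.2 and 37.5 CPM at the low dose of Zizyphi Fructus, and without replicate 3 its difference between the extracts was 0.40 (adjusted p = 0.293). For the 8 genes none of the differences between the extracts passed (adjusted p from 0.308 to 0.663, and 1 for each without replicate 3). Since the 8 were chosen by their change in Zizyphi Fructus, the sign of these differences is partly set by that choice and is not read here. The difference for HMOX1 was 0.48 with replicate 3 and 0.42 without it, and that for AKR1C2 was 0.16 and -0.04.

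Coptidis Rhizoma, whose samples share the code set, was given at 290 and 11.6 µg/mL, so the doses differ while their ratio does not. The change between its doses differed from that of Zizyphi Fructus in 6880 genes (41.4%). In 6 of the 8 genes the change was smaller in Zizyphi Fructus at an adjusted p under 0.05, as with AKR1C1 at 0.49 against 2.11 and HMOX1 at 0.40 against 1.76. The other 2 depended on replicate 3. ALDH3A1, at 0.59 against 0.88, did not pass with it (adjusted p = 0.0842) and was smaller in Zizyphi Fructus without it (difference -0.44, adjusted p = 0.00272). AKR1B10 was larger in Zizyphi Fructus with it, at 0.50 against 0.26 (difference 0.24, adjusted p = 0.0451), and its difference was 0.11 without it (adjusted p = 0.334). CYP1A1 changed by 7.40 in Coptidis Rhizoma, against the 0.37 with its wide error in Zizyphi Fructus.

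**Figure D5:**
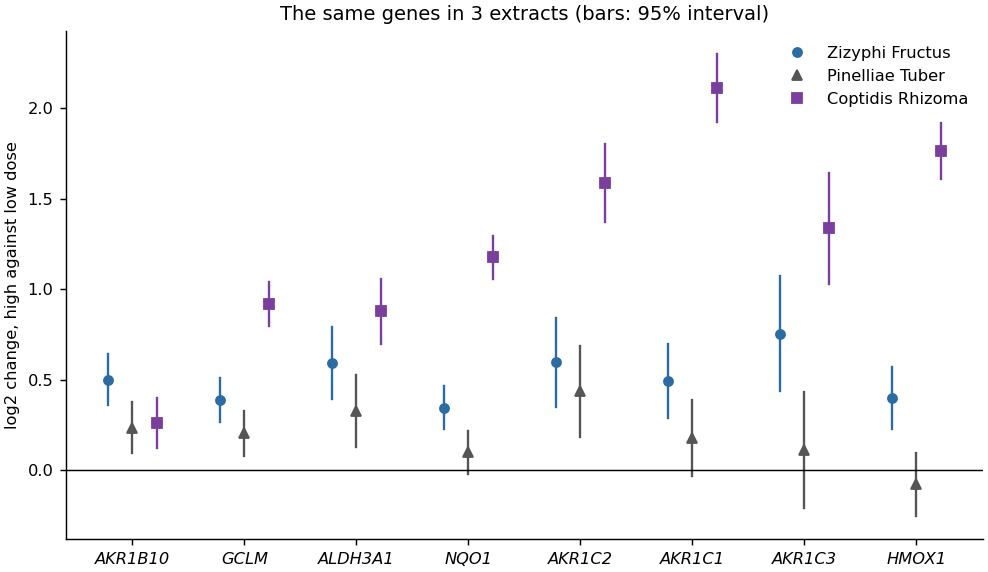
Log2 change between the high and the low dose (y axis) with its 95% interval for the 8 genes (x axis) in Zizyphi Fructus and Pinelliae Tuber (500 against 20 µg/mL) and Coptidis Rhizoma (290 against 11.6 µg/mL). The 8 genes were chosen by their change in Zizyphi Fructus, and its points, from 0.34 to 0.75, lie below those of Coptidis Rhizoma in all but AKR1B10 (0.50 against 0.26).

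The samples carried markers of colon epithelium, at widely differing levels. KRT8 and KRT18, with medians of 6270 and 3320 CPM over the 6 samples, made up most of the sum given next. The medians of CDX1, CDX2, CDH17 and CEACAM5 were only 1.39, 5.85, 4.88 and 6.23 CPM. None of 12 markers of colon epithelium was below 1 CPM in all 6 samples, and their summed level, here per 1e6 counts without TMM scaling as for the other marker lists, was 11900 to 14900 CPM at the high and 11800 to 12100 CPM at the low dose. Of 6 endothelial and 8 fibroblast markers, 5 and 7 were below 1 CPM in all 6 samples, and the sums were 2.90 CPM at most. Of 8 leucocyte markers 4 were below 1 CPM, and 2 of them had no count, while nearly all of that list's sum (1770 to 2090 and 1730 to 1790 CPM) came from LYZ, which gut epithelium also makes. In bulk RNA of this kind, fewer cells of a state and less RNA per cell cannot be told apart.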

How the data were processed

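Messenger RNA was sequenced from directional libraries as paired 100 bp reads, per the labels. The authors deposited expected counts per gene, unscaled between libraries. The submitters' processing notes name RSEM 1.3.3, STAR 2.7.3a, FastQC 0.11.9, Trim Galore 0.6.5 and the GRCh38 build. Of all values 8.75% were not whole, and all were rounded. GENCODE 29, which holds 57055 of the 60675 genes, gave positions and exonic lengths, the latter over the union of all annotated exons of a gene. A further 210 columns belong to other samples and stayed unused. Libraries held 11.1 to 34.4 M counts (M, 1e6), and the smallest chi-square per gene between 2 of the 12 Zizyphi Fructus and vehicle libraries was 2.23, so none was a copy.

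Counts were scaled by TMM, filtered by filterByExpr and fitted in R 4.3.3 with edgeR 4.0.16, using all 60 libraries and 1 coefficient for each of the 20 groups. Robust quasi-likelihood tests (40 residual degrees of freedom) were adjusted by Benjamini-Hochberg over all genes tested and called under 0.05. Fits without high-dose replicate 3 repeated every step. Standard errors are absolute log2 changes over the square root of F. CPM values use TMM-scaled library sizes, except those of the cell-type markers. DESeq2 1.42.0 was an alternative.

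The genes, groups and 46 gene lists were chosen with earlier results of these data known, and 2 lists (NRF2 control, other conjugation and efflux) after the comparison itself was seen. Named genes were the 15 largest called changes in each direction with a mean of at least 5 CPM and no overlap between doses, filled to 10 in a direction by the smallest p, up to 4 per list by p, and up to 5 called genes for each other comparison. Genes of the NRF2 list were named as well, and 1 of them and 1 ribosomal-protein gene are not reported here by name. Other genes in the text were chosen after their values were seen. No test compared a list with other genes.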

Additional observations from a re-analysis of the deposited data

Results flagged for a closer look

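The change from low to high dose differed between Zizyphi Fructus and Pinelliae Tuber in 1 gene, TRIB3, by 0.52 on the log2 scale. It differed between Zizyphi Fructus and Coptidis Rhizoma in 6880 genes. The 5 with the smallest p were ASNS (-3.01), VEGFA (-2.26), CLDN2 (2.08), WARS1 (-2.05) and PSAT1 (-2.19), each as Zizyphi Fructus minus Coptidis Rhizoma. These came almost wholly from Coptidis Rhizoma, where ASNS, an asparagine synthetase, changed by 3.11 against 0.10, VEGFA, a vessel growth factor, by 2.17 against -0.10, and CLDN2, a pore-forming claudin, by -2.16 against -0.08. All were tested as interaction terms of the edgeR fit.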

How the results depend on the processing

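The 8 genes called between high and low dose kept a positive change under all 15 alternatives run for each. They stayed called in 13 (GCLM and AKR1B10), 12 (ALDH3A1), 11 (NQO1), 8 (AKR1C1), 6 (AKR1C2 and AKR1C3) and 4 (HMOX1) of them. The number of called genes was far less steady. It was 7 with DESeq2 size factors or without ribosomal-protein and mitochondrial genes, 2023 with no filter on low counts, 1182 with the DESeq2 Wald test, 4 for a trend on log10 dose, 3 without 4 libraries of the series that stand apart, and 0 in fits of the compared groups alone (411 at an unadjusted p under 0.05) or of the 9 Zizyphi Fructus libraries (990). High against the mean of medium and low, chosen after seeing the data, gave 1827, and 2 without high replicate 3. Leaving out 1 library gave 2 to 4376: 4376 without high replicate 1, 1603 without replicate 2, 2 without replicate 3, and 4, 4 and 5 without low replicates 1, 2 and 3.

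High against medium gave 2063 with no filter, 841 with DESeq2, 0 without the 4 libraries and in both smaller fits, and 0 to 4325 leaving out 1 library (4325 and 1343 without high replicates 1 and 2, 0 without high replicate 3 or medium replicate 1 or 3). Medium against low gave 63 with no filter, 1 with DESeq2 and 0 leaving out any library. High against vehicle gave 98 with no filter, 11 with DESeq2, 0 in the smaller fit and 0 to 17 leaving out 1 library (17 and 1 without high replicates 1 and 3, 0 without vehicle replicate 2). The difference from Pinelliae Tuber gave 1007 with no filter, 2 with DESeq2, 0 without the 4 libraries and in the smaller fit, and 0 to 1677 leaving out 1 library (1677 without high replicate 1, 0 without high replicate 3), and that from Coptidis Rhizoma 5199 to 7199 over all settings. NFE2L2, at 0.0234, was -0.0185 without the 4 libraries and ran from -0.0147 (without high replicate 3; -0.0051 without low replicate 1) to 0.0410 leaving out 1 library. The causes were not tested.

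With the replicate number as a block, high against low gave 5 genes, the difference from Pinelliae Tuber 2, high against medium 4 and high against vehicle 3. In their deviations from the group means, same-numbered high and low samples correlated at 0.00 to 0.11, and differently numbered ones at -0.12 to 0.06. The main fit did not treat them as pairs. Whether same-numbered samples share an effect was not tested beyond this block. Depth limits genes near 1 CPM, such as ABCC2 and CYP1A1.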
